A study of Mus musculus with 10 samples.

Results

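Cholesterol synthesis and its control by the transcription factor SREBP2 were examined in mouse liver through 29 genes, of 47702 in the deposited table. The genes were taken by symbol and ordered by pathway step. They comprise 20 genes of the mevalonate and sterol synthesis steps, 4 of sterol sensing (Insig1, Insig2, Srebf2 and Scap), 3 of sterol uptake and transport (Stard4, Tmem97 and Mylip) and 2 of the dolichol side branch (Dhdds and Nus1). All 29 matched 1 row each, and all 29 passed the filter on low values (at least 0.5 FPKM as the mean of all 10 libraries), which 12247 genes of the table passed.

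The livers came from female mice: 5 samples from mice with a knockout of Etnppl in the full body (KO) and 5 from wild-type (WT) mice, all after 20 weeks of chow. The enzyme made from Etnppl, ethanolamine-phosphate phospho-lyase, degrades phosphoethanolamine, from which membrane phospholipids are made. Poly-A RNA of each snap-frozen liver was sequenced in paired ends, and the deposited unit is FPKM, which scales fragments to transcript length and to the library. Strain background, targeted exons and hour of harvest are not known here. Nothing in the labels ties each sample to its own animal, so the p-values reflect sample-to-sample spread, which may be technical. Because whole liver was measured, fewer cells of a type and less RNA per cell cannot be told apart.

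Etnppl itself had 26.4, 21.97, 18.9, 25.7 and 17.7 FPKM in KO 1 to KO 5, against 60.3, 69.7, 108, 47.2 and 43.3 FPKM in WT 1 to WT 5. Every KO library lay below every WT library, and limma gave a log2 difference of -1.49 (SE 0.2296, adjusted p = 0.00504), so the transcript was lower but present in KO. As a check of the tissue, 10 hepatocyte markers, albumin among them, summed to 80970 to 88960 FPKM in KO and 76330 to 81920 FPKM in WT. No pair of libraries held identical values, and Spearman correlations across genes were 0.977 to 0.988 within genotypes and 0.974 to 0.983 between them. Total reads per library are not known here. Relative depth, estimated from the steps between low values of 64 genes, was 0.903 to 1.06 in KO and 1 to 1.11 in WT.

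Cells make cholesterol from acetyl-CoA through mevalonate, isoprenoid diphosphates, squalene and lanosterol, and the liver is a main site of this synthesis. When sterols are scarce in the endoplasmic reticulum, SCAP escorts the SREBP2 precursor to the Golgi, where proteolysis releases a transcription factor that binds sterol response elements before the genes of the pathway. When sterols are plentiful, INSIG proteins hold SCAP back. Insig1 is itself a target of SREBP2, whereas rodent Insig2 has a liver transcript that insulin lowers.

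In KO livers 12 of the 29 genes were lower, 1 was higher and 16 did not pass the test (limma, Benjamini-Hochberg adjusted p under 0.05 over all genes tested). Of all genes tested, 4.56% were called lower and 3.98% higher. The genes that fell were Hmgcs1, Mvd, Idi1, Fdps, Sqle, Cyp51, Msmo1, Nsdhl and Ebp of the synthesis steps and Insig1, Srebf2 and Scap of the sensing machinery, and the gene that rose was Insig2. The median log2 difference of the 29 genes was -0.30, against -0.02 over all genes tested. The difference was negative in 26 of the 29, against 54.3% of all genes tested. In 11 of the 29 every KO library was below every WT library, and in 0 of the 29 every KO library was above, whereas 4.78% of all genes tested had KO wholly below WT and 4.08% wholly above. Of the 13 called genes, 8 were called whichever single library was left out: Mvd, Fdps, Sqle, Msmo1, Ebp, Insig1, Srebf2 and Scap.

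**Figure D1:**
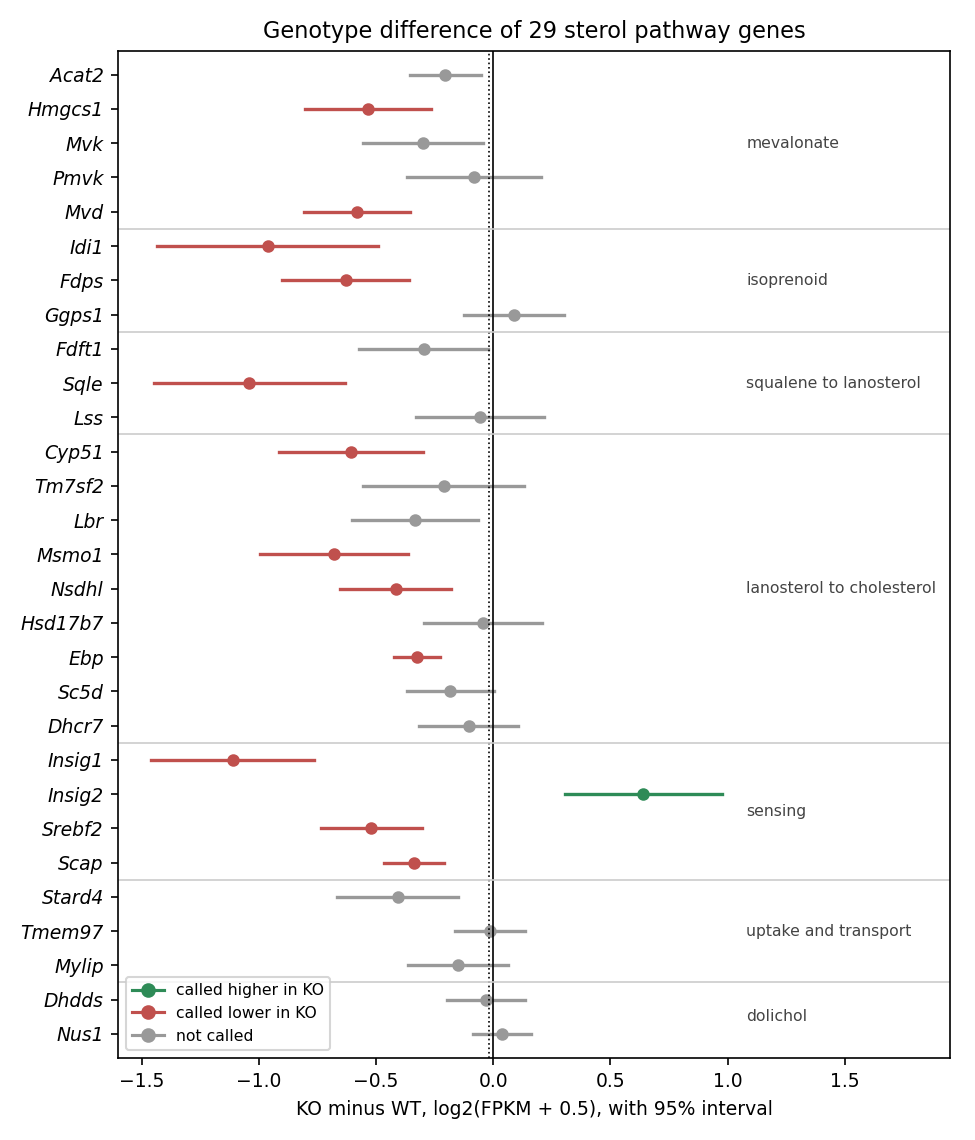
Log2 difference between KO and WT (x axis, on the log2(FPKM + 0.5) scale) for each of the 29 genes in pathway order. Lines show the 95% interval, and colours show the limma call (lower, higher or not called). Points lie left of 0 for 26 of 29 genes, and the extremes are Insig1 at -1.11 and Insig2 at 0.64.

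In the mevalonate steps, 2 of 5 genes fell, none rose (0 at an unadjusted limma p under 0.05) and all 5 differences were negative. Hmgcs1, the cytosolic HMG-CoA synthase, is a gene of chromosome 13 (plus strand, 119690379 to 119708260 in GRCm38). It had 23.9, 20.1, 17.7, 20.7 and 17.8 FPKM in KO 1 to KO 5, against 25.4, 25.5, 25.5, 32.9 and 37.9 FPKM in WT 1 to WT 5. All KO libraries were below all WT libraries, with WT 4 and WT 5 the highest, and limma gave a log2 difference of -0.53 (SE 0.124, adjusted p = 0.0242). The call was lost without KO 2, KO 3, KO 5 or WT 4 (limma adjusted p up to 0.0595), and with no filter on low values (0.0521). Mvd, the decarboxylase that makes isopentenyl diphosphate, was the least abundant of the 29 genes. It had 0.85, 0.75, 0.56, 0.59 and 0.59 FPKM in KO, against 1.2, 1.26, 1.23, 1.43 and 1.1 FPKM in WT. The groups did not overlap, and limma gave a log2 difference of -0.58 (SE 0.103, adjusted p = 0.00723). At this level the added 0.5 FPKM shrinks the difference: the ratio of the KO mean to the WT mean was 0.537.

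The other 3 enzymes of these steps did not pass. Acat2, the cytosolic acetoacetyl-CoA thiolase, averaged 19.9 ± 2.11 FPKM in KO and 22.9 ± 0.594 FPKM in WT (SD, n = 5 each), a log2 difference of -0.20 (limma adjusted p = 0.0925, and 0.0428 without KO 1). Mvk, mevalonate kinase, averaged 3.13 ± 0.526 FPKM in KO and 3.95 ± 0.519 FPKM in WT. Its groups did not overlap, by a narrow margin of 3.54 FPKM in the highest KO library against 3.56 FPKM in the lowest WT library, and limma gave an adjusted p of 0.14. Pmvk, the next kinase, averaged 10.8 ± 1.499 FPKM in KO and 11.5 ± 2.26 FPKM in WT, a log2 difference of -0.08 with a 95% interval of -0.37 to 0.20.

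The Hmgcs1 promoter is shown because it was the only one, of the 25 genes with an entry in the RefSeq promoter table, that held the core letters searched for as a sterol response element, TCACNCCAC. The 250 bases before the start on the plus strand (chr13:119690101-119690350, GRCm38.p6) are printed with this match, CCAAT boxes and GGGCGG boxes in capitals. CCAAT and GGGCGG are the letters bound by NF-Y and SP1, factors known to act beside SREBP2, and ATTGG and CCGCCC are the same letters read on the opposite strand.
Hmgcs1: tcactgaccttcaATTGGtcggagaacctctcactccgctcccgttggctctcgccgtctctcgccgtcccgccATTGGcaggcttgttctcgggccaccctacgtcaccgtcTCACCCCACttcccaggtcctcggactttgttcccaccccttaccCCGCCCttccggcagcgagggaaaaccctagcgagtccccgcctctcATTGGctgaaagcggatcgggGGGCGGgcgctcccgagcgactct
Counted from the start, the response element match begins at position -137, between CCAAT boxes at -176 and -45. Over windows of 300 bases (250 before to 50 after each start, both strands), TCACNCCAC was in 1 of the 25 genes (4%) and in 1.44% of the 27025 genes in the table. CCAAT was in 23 of the 25 genes (92.0%), against 41.1% of all genes in the table and 42.7% of the 9077 that were also tested here. GGGCGG was in 23 of the 25 (92.0%), against 38.2% and 67.4%. The E-box CACGTG was in 6 of the 25 (24%), against 8.09% and 12.0%. With 1 mismatch allowed, a search added after seeing the data, the response element core was in 11 of the 25 (44.0%), against 26.7% and 29%. No printed matches overlap each other. A match is a run of letters, and no binding was measured. Fdps, Sqle, Fdft1 and Stard4 were not searched.

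In the isoprenoid steps, 2 of 3 genes fell. Idi1, the isomerase of isopentenyl diphosphate, had 3.33, 2.49, 1.71, 4.09 and 3.24 FPKM in KO, against 5.7, 3.83, 6.75, 6.68 and 8.22 FPKM in WT. The groups overlapped by 1 pair, since KO 4 was above WT 2, and limma gave a log2 difference of -0.96 (SE 0.215, adjusted p = 0.0216). The Idi1 call was lost without KO 2 or WT 5 (limma adjusted p up to 0.0537). Fdps, which joins these units into farnesyl diphosphate, had 8.26, 6.89, 7.07, 8.56 and 7.97 FPKM in KO and 11.9, 8.95, 12.1, 13.5 and 15.5 FPKM in WT. No KO library reached the lowest WT library, WT 2, and limma gave a log2 difference of -0.63 (SE 0.124, adjusted p = 0.0122). Ggps1 extends farnesyl diphosphate for protein prenylation and so leads away from sterols. It averaged 2.69 ± 0.265 FPKM in KO and 2.504 ± 0.345 FPKM in WT (SD, n = 5 each), a log2 difference of 0.09 with a 95% interval of -0.12 to 0.30. Ggps1 overlaps Arid4b on the opposite strand, which averaged 6.19 FPKM in KO and 6.21 FPKM in WT and was not called (limma adjusted p = 0.993). Fdps and Pmvk lie on chromosome 3, as Etnppl does, at 41.5 and 41.1 Mb from it. The part of this position in their levels was not tested.

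Between farnesyl diphosphate and lanosterol, 1 of 3 genes fell. Sqle, the epoxidase that adds the first oxygen to squalene, had 1.51, 1.07, 0.74, 1.23 and 1.12 FPKM in KO, against 2.81, 2.03, 2.15, 3.18 and 4.46 FPKM in WT. Its highest KO value, in KO 1, was below its lowest WT value, in WT 2, and limma gave a log2 difference of -1.04 (SE 0.186, adjusted p = 0.00744). The mean in KO was 0.388 times that in WT, the lowest such ratio among the 29 genes. Fdft1, squalene synthase, averaged 9.96 ± 1.75 FPKM in KO and 12.3 ± 1.98 FPKM in WT (limma adjusted p = 0.174). It overlaps Ctsb on the opposite strand, a gene with a mean of 131 FPKM, and the strand setting of the counting is not known here. Lss, which cyclises epoxidised squalene to lanosterol, averaged 2.77 ± 0.464 FPKM in KO and 2.904 ± 0.546 FPKM in WT, a log2 difference of -0.06 with a 95% interval of -0.33 to 0.21.

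From lanosterol to cholesterol, 4 of 9 genes fell, none rose (0 at an unadjusted limma p under 0.05) and all 9 differences were negative. Cyp51, the lanosterol demethylase, had 5.74, 4.5, 4.23, 5.48 and 4.19 FPKM in KO, against 7, 6.38, 6.23, 8.42 and 10.4 FPKM in WT. The groups were apart, and limma gave a log2 difference of -0.61 (SE 0.1403, adjusted p = 0.0242). That call was lost without KO 2, KO 3, KO 5 or WT 4 (limma adjusted p up to 0.0595), and with no filter on low values (0.0509). Cyp51 overlaps Akap9 on the opposite strand, which averaged 9.13 FPKM in KO and 10.6 FPKM in WT and was not called (limma adjusted p = 0.193). Msmo1, a methylsterol oxidase, had 6.92, 4.66, 4.57, 7.9 and 5.22 FPKM in KO and 9.1, 9.06, 8.72, 9.01 and 11.7 FPKM in WT. KO 4 came closest to WT without reaching it, and limma gave a log2 difference of -0.68 (SE 0.144, adjusted p = 0.0167). Nsdhl, the dehydrogenase that works with Msmo1, had 4.11, 3.18, 3.57, 4.06 and 3.16 FPKM in KO and 5.23, 5.06, 5.74, 3.9 and 5.08 FPKM in WT. WT 4 lay below KO 1 and KO 4, so the groups overlapped, and limma gave a log2 difference of -0.42 (SE 0.108, adjusted p = 0.0368). Among the 13 called genes Nsdhl lost its call in the most left-out fits. It was lost without any of 7 libraries (KO 2, KO 3, KO 5, WT 1, WT 2, WT 3 or WT 5, limma adjusted p up to 0.0859), and with no filter on low values (0.0671).

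Ebp, the sterol isomerase, was the most abundant synthesis gene and had the smallest p of the 29. Its levels were 75.1, 74.7, 75.8, 70.8 and 68.7 FPKM in KO, against 88.5, 92.6, 94, 89.8 and 92.4 FPKM in WT. Both groups were tight and far apart for their spread, although the change was modest, and limma gave a log2 difference of -0.32 (SE 0.0449, adjusted p = 0.00251). The other 5 genes of these steps did not pass. Tm7sf2 and Lbr encode alternative sterol reductases for the step after Cyp51. Tm7sf2 averaged 54.5 ± 6.38 FPKM in KO and 64.3 ± 14.2 FPKM in WT (limma adjusted p = 0.447, and 0.0429 without WT 4). It overlaps Vps51 on the same strand (12.5 FPKM in KO and 11.6 FPKM in WT). Lbr, also a protein of the inner nuclear membrane, averaged 1.58 ± 0.384 FPKM in KO and 2.09 ± 0.1498 FPKM in WT (limma adjusted p = 0.1205). Sc5d, the sterol desaturase, averaged 65.8 ± 6.27 FPKM in KO and 74.8 ± 8.53 FPKM in WT (limma adjusted p = 0.211). Dhcr7, a terminal reductase, averaged 13.5 ± 0.964 FPKM in KO and 14.6 ± 2.08 FPKM in WT, a log2 difference of -0.11 with a 95% interval of -0.32 to 0.11. Hsd17b7, a ketosterol reductase, averaged 18.9 ± 2.71 FPKM in KO and 19.6 ± 3.07 FPKM in WT, a log2 difference of -0.04 with a 95% interval of -0.30 to 0.21.

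**Figure D2:**
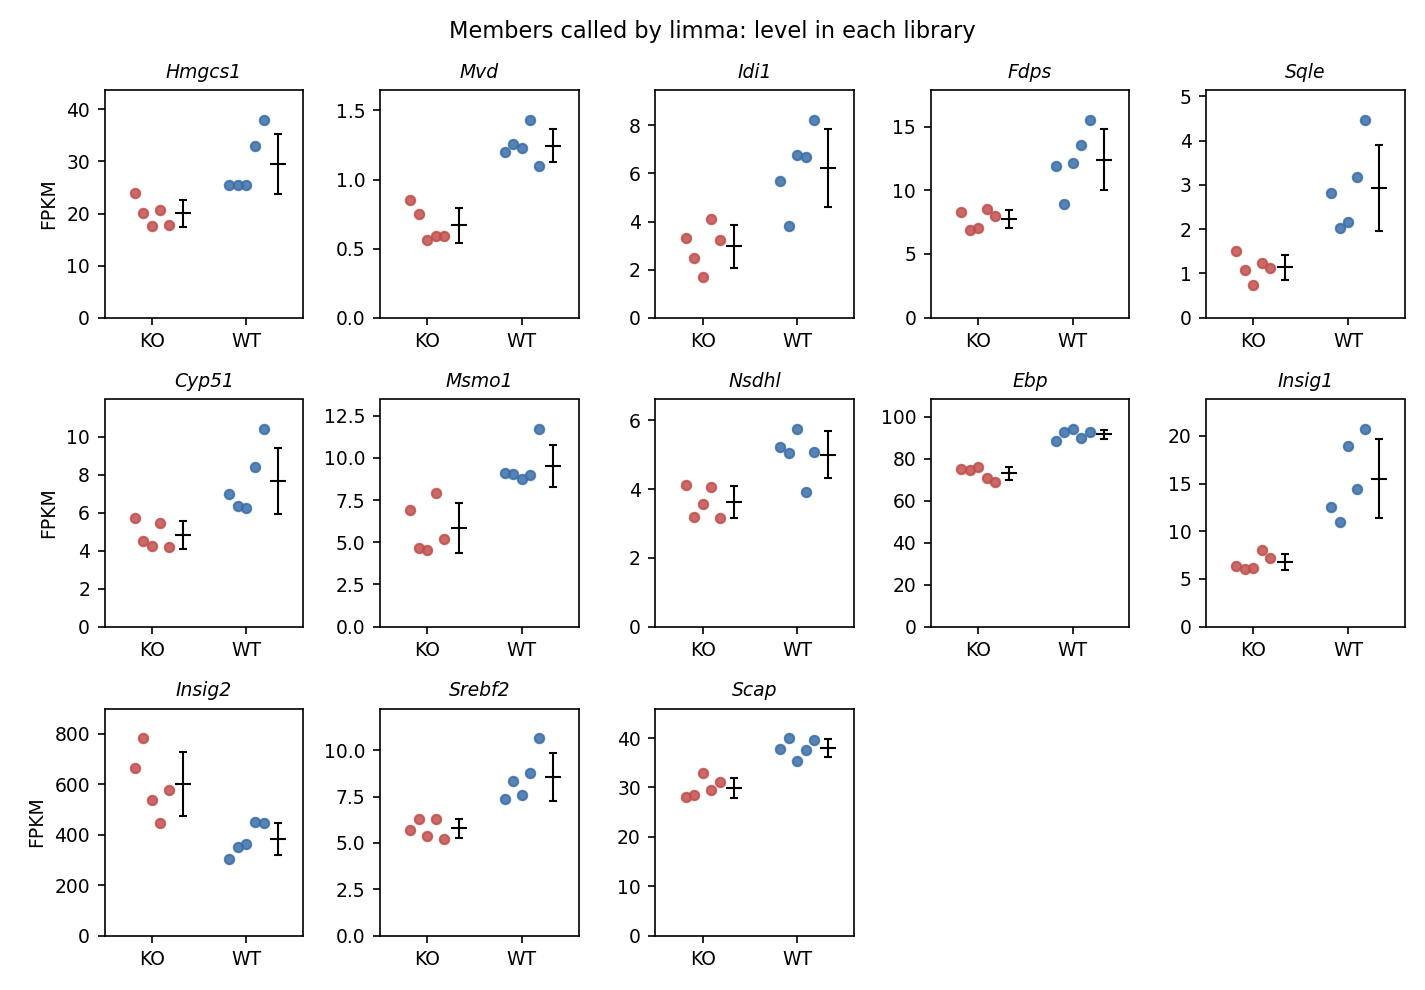
FPKM of each called gene in each library (points, y axis from 0), with KO left of WT and bars for the mean and SD of 5 libraries. KO points lie below all WT points for the genes that fell except Idi1 and Nsdhl, whose groups overlap, and Insig2 is higher in KO with 1 overlapping library.

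Over the 20 synthesis genes together, 9 fell, 0 rose (0 at an unadjusted limma p under 0.05) and 11 did not pass, and 19 differences were negative. Their summed level was 340.0, 324, 313, 338 and 301 FPKM in KO 1 to KO 5, against 400.3, 384, 408, 364 and 431 FPKM in WT 1 to WT 5. Every KO sum was below every WT sum. Ebp, Sc5d and Tm7sf2 made up most of it. Without these 3 genes the sum was 116 to 142 FPKM in KO and 155 to 190.5 FPKM in WT.

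Of the 4 sterol sensing genes 3 fell and 1 rose, the single rise among the 29. Insig1 (plus strand of chromosome 5, 28071363 to 28078662) had 6.35, 6.07, 6.12, 8.02 and 7.16 FPKM in KO, against 12.5, 10.9, 18.9, 14.4 and 20.7 FPKM in WT. The KO libraries lay close together and all below the more widely spread WT libraries, and limma gave a log2 difference of -1.11 (SE 0.159, adjusted p = 0.00298). Insig2 (minus strand of chromosome 1, 121304353 to 121332589) had 664, 782, 536, 447 and 576 FPKM in KO, against 302, 352, 364, 449 and 446 FPKM in WT. It was the most abundant of the 29 genes in both genotypes. Its groups overlapped, with KO 4 below WT 4, and limma gave a log2 difference of 0.64 (SE 0.153, adjusted p = 0.0286). An exact two-sided permutation test of the same Insig2 values over all arrangements of 5 and 5 libraries gave an unadjusted p = 0.0159. The Insig2 call was lost without any of 6 libraries (KO 1, KO 2, KO 5, WT 1, WT 2 or WT 3, limma adjusted p up to 0.062) and with no filter on low values (0.054).

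The ratio of Insig1 to Insig2, taken within each library, differed between genotypes. The log2 ratio of Insig1 to Insig2 was -6.60, -6.90, -6.34, -5.71 and -6.23 in KO 1 to KO 5, against -4.53, -4.94, -4.23, -4.91 and -4.39 in WT 1 to WT 5. Every KO ratio was lower than every WT ratio. The means were -6.36 ± 0.441 in KO and -4.60 ± 0.316 in WT (SD, n = 5 each), a difference of -1.75 (exact permutation test, two-sided, p = 0.00794, Benjamini-Hochberg p = 0.0198 over 5 pairs of related genes). That p is the smallest that these arrangements allow, and Insig1 alone gave the same unadjusted exact permutation p. The ratio combines the fall of Insig1 and the rise of Insig2 given above, so it is not a separate change.

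**Figure D3:**
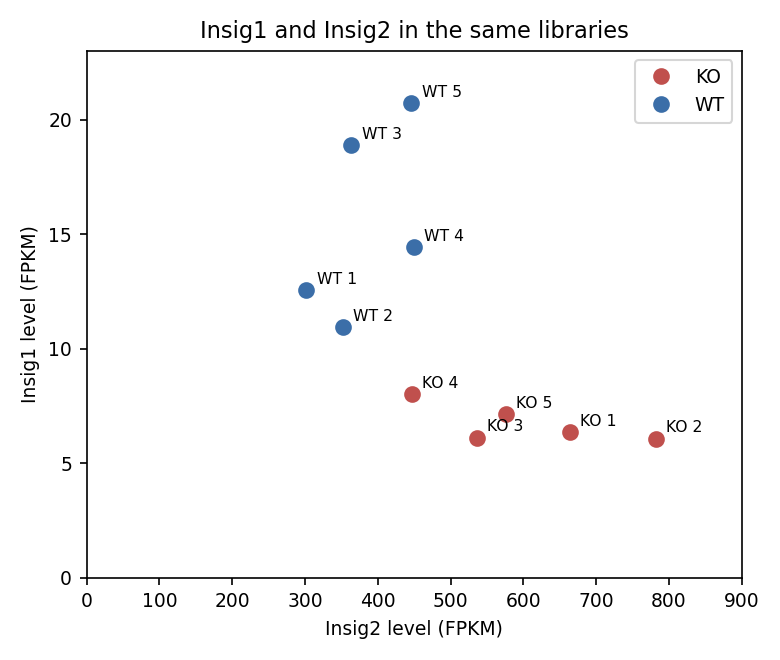
Insig1 level against Insig2 level in FPKM, 1 point per library, KO and WT in separate colours. The KO libraries have Insig1 at 6.07 to 8.02 FPKM and Insig2 at 447 to 782 FPKM, against 10.9 to 20.7 FPKM and 302 to 449 FPKM in WT.

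The promoter windows of both INSIG genes are shown, chosen after their values were seen, because their transcripts moved in opposite directions. The same letters are in capitals as for Hmgcs1, with CACGTG added. Insig1 is on the plus strand (chr5:28071162-28071362). For Insig2, on the minus strand, the windows are those of the first (chr1:121332590-121332839) and the second (chr1:121328025-121328274) of 3 starts. All are from RefSeq in GRCm38.p6 and end where an annotated exon begins.
Insig1: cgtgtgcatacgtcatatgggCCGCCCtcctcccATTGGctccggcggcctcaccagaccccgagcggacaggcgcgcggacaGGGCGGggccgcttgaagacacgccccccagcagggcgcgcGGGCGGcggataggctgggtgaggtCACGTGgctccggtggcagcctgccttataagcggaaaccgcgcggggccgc
Insig2, first start: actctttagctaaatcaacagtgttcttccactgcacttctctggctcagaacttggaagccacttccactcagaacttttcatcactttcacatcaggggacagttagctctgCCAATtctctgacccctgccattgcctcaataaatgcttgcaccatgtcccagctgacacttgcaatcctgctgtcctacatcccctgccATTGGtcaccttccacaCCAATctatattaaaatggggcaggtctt
Insig2, second start: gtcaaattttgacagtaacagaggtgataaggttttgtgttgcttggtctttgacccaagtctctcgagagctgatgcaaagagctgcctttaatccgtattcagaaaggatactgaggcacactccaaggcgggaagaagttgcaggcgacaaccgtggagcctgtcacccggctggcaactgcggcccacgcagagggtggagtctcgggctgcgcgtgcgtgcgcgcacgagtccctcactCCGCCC
The Insig1 window held 1 CCAAT box, 3 GGGCGG boxes and 1 CACGTG box. At Insig2 the window of the first start held 3 CCAAT boxes and no GGGCGG box, and that of the second held 1 GGGCGG box and no CCAAT box. FPKM per gene does not show which start was used.

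Srebf2, which encodes SREBP2, had 5.7, 6.28, 5.4, 6.3 and 5.22 FPKM in KO, against 7.39, 8.36, 7.6, 8.79 and 10.7 FPKM in WT. All KO libraries were below all WT libraries, with WT 5 the highest, and limma gave a log2 difference of -0.52 (SE 0.0989, adjusted p = 0.0101). Scap, the sterol sensor that escorts SREBP2, had 28, 28.4, 32.9, 29.4 and 31.2 FPKM in KO and 37.8, 39.99, 35.3, 37.5 and 39.5 FPKM in WT. The groups did not overlap, and limma gave a log2 difference of -0.34 (SE 0.0582, adjusted p = 0.00652). Both transcripts were called whichever library was left out. These are transcript levels, and the processed form of SREBP2 was not measured.

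Of the uptake and transport genes, 0 of 3 passed (limma, 1 of 3 at an unadjusted p under 0.05). Stard4, a carrier that moves cholesterol between membranes, had 3.65, 3.07, 3.39, 4.33 and 3.99 FPKM in KO and 4.76, 3.85, 5.14, 5.76 and 5.85 FPKM in WT. WT 2 lay within the KO values, and limma gave a log2 difference of -0.41 (SE 0.118, adjusted p = 0.0554). Without WT 2 it passed (limma adjusted p = 0.0211) and it did so with library quality weights (0.0444). Mylip, a sterol-induced ubiquitin ligase, had 4.81, 5.03, 4.88, 5.67 and 5.26 FPKM in KO, against 4.89, 6.26, 7.13, 5.3 and 5.34 FPKM in WT. Its groups overlapped broadly, and limma gave a log2 difference of -0.15 (SE 0.0977, adjusted p = 0.381). Tmem97, a sterol-binding membrane protein, averaged 28.3 ± 1.49 FPKM in KO and 28.6 ± 2.74 FPKM in WT (SD, n = 5 each), with a 95% interval of the log2 difference of -0.16 to 0.14. The dolichol branch genes Dhdds and Nus1 encode subunits of the enzyme that builds the dolichol chain. Dhdds averaged 10.03 ± 0.6399 FPKM in KO and 10.3 ± 1.051 FPKM in WT, a log2 difference of -0.03 with a 95% interval of -0.20 to 0.14. Nus1 averaged 12.4 ± 0.423 FPKM in KO and 12.1 ± 0.703 FPKM in WT, a log2 difference of 0.04 with a 95% interval of -0.09 to 0.16.

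The 16 genes that did not pass ranged from -0.41 to 0.09 on the log2 scale, and 14 of them were negative. The unadjusted limma p was under 0.05 for 5 of these 16 (Acat2, Mvk, Fdft1, Lbr and Stard4), and the 95% interval spanned 0 for the other 11.

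Other pairs of related or partner genes were compared within libraries in the same way. Acat1, the mitochondrial thiolase, fell (176 ± 7.78 FPKM in KO against 227 ± 31.5 FPKM in WT, limma adjusted p = 0.0256), although its call was lost without KO 1, KO 2, KO 4 or WT 5 (limma adjusted p up to 0.0618). The ratio of Acat2 to Acat1 did not pass (difference 0.16, exact permutation p = 0.302), nor did those of Lbr to Tm7sf2 (-0.12, exact permutation p = 0.563) and Dhdds to Nus1 (-0.07, exact permutation p = 0.341).

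Libraries differed in how far they departed. Counted over the 29 genes, 24, 23, 26, 21 and 27 were below the WT mean in KO 1 to KO 5, against 22, 16, 14, 17 and 10 in WT 1 to WT 5. The WT mean is that of these same WT libraries, so their deviations centre on it. The contrast between genotypes in these counts therefore restates the differences given above. KO 5 and KO 3 had the lowest median deviations from the WT mean on the log2 scale (-0.41 and -0.36), and KO 4 the one nearest to it among KO (-0.15). WT 5 was the highest WT library for 8 of the 12 genes that fell. KO 1 and KO 4 were the highest KO library for 5 each.

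**Figure D4:**
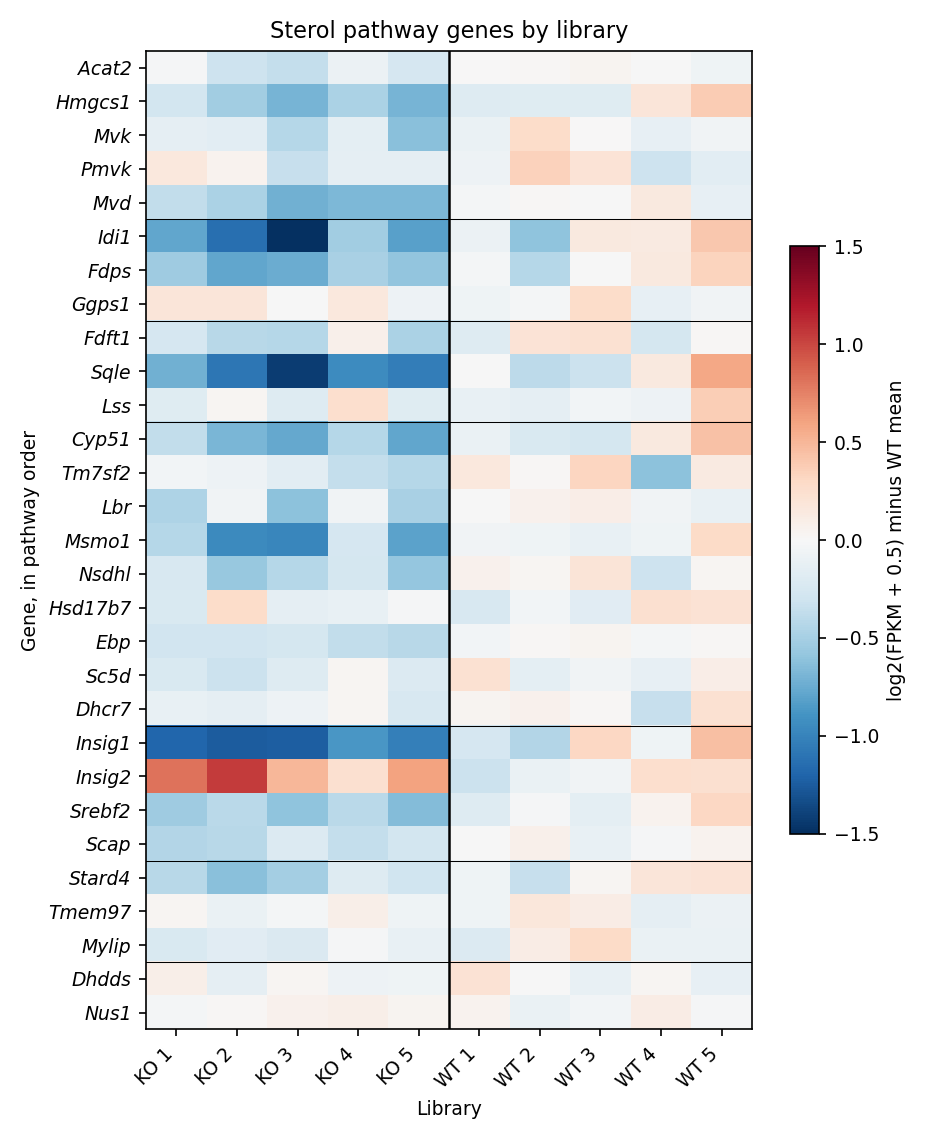
Deviation of each library from the WT mean on the log2(FPKM + 0.5) scale for the 29 genes in pathway order, with KO 1 to KO 5 left of WT 1 to WT 5. Most cells of the KO columns are negative, while Insig2 is positive there, and WT 5 is below the WT mean for only 10 of the 29 genes.

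Among all genes tested, limma called 4.56% lower, 3.98% higher and 8.54% in either direction, for comparison with the lists that follow. Genes that act on SREBP or on sterol-dependent degradation had 1 of 14 lower and 0 higher (limma, 1 higher at an unadjusted p under 0.05) and a median log2 difference of -0.07. Mbtps1, the protease that makes the first cut in SREBP in the Golgi, averaged 10.3 ± 0.885 FPKM in KO and 12.9 ± 1.25 FPKM in WT (limma adjusted p = 0.0391). It lost its call without any of 8 libraries, all but KO 5 and WT 3 (limma adjusted p up to 0.0893). In the wider isoprenoid and dolichol branch 1 of 15 genes fell (median -0.03): Coq5, of coenzyme Q synthesis, averaged 10.7 ± 0.749 FPKM in KO and 13.4 ± 0.728 FPKM in WT (limma adjusted p = 0.0131). A list on the sterol receptor LXR, its targets and sterol handling held 8 genes: Nr1h3, Nr1h2, Abca1, Abcg1, Abcg5, Abcg8, Lpcat3 and Nceh1. Nr1h3 and Nr1h2 encode the receptor itself. Of the 8, 0 passed in limma (1 at an unadjusted p under 0.05, and the median was 0.01).

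Among 15 genes of cholesterol transport and esterification 2 fell and 2 rose (median -0.07). Scp2, a peroxisomal sterol carrier and thiolase, averaged 1294 ± 21.7 FPKM in KO and 1553 ± 88.2 FPKM in WT (limma adjusted p = 0.00885). Npc2, which carries cholesterol out of the lysosome, averaged 12.6 ± 0.8303 FPKM in KO and 15.6 ± 1.28 FPKM in WT (limma adjusted p = 0.02702, lost without KO 2, KO 5 or WT 1, up to 0.0604). Stard5, a sterol-binding relative of Stard4, averaged 63.4 ± 3.96 FPKM in KO and 50.4 ± 2.87 FPKM in WT (limma adjusted p = 0.00723). Gramd1c, of a family of sterol transfer proteins, averaged 14.5 ± 2.08 FPKM in KO and 9.78 ± 1.29 FPKM in WT (limma adjusted p = 0.0167).

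Of 12 tested genes of lipogenesis driven by SREBP1, none was called lower (0 at an unadjusted limma p under 0.05) and 2 were called higher, with a median of 0.02. The differences were negative in 6 of the 12 and positive in 6. Elovl6, a fatty acid elongase, averaged 10.4 ± 0.925 FPKM in KO and 7.41 ± 0.831 FPKM in WT (limma adjusted p = 0.0104). Acaca, acetyl-CoA carboxylase, averaged 10.9 ± 1.21 FPKM in KO and 8.06 ± 1.21 FPKM in WT (limma adjusted p = 0.0371). It lost its call without any of 7 libraries, all but KO 4, WT 1 and WT 3 (up to 0.0842). Srebf1, named after its values were seen, had 6.56, 11.4, 3.28, 4.95 and 4.97 FPKM in KO and 6.49, 13.96, 16.9, 6.05 and 8.16 FPKM in WT. The WT libraries alone spread from 6.05 to 16.9 FPKM, and limma gave a log2 difference of -0.68 (SE 0.349, adjusted p = 0.265). Scd1, also named after its values were seen, had the most negative difference of the 12 (limma log2 difference -0.87, adjusted p = 0.3525). It averaged 72.0 ± 20.4 FPKM in KO and 167 ± 128 FPKM in WT, where libraries spread from 38.9 to 360 FPKM.

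Genes of the feeding response and the clock were read in the same fit. Igfbp1, which insulin lowers, was the 1 of 12 fasting and feeding genes that passed, at 785 ± 181 FPKM in KO and 360.5 ± 160.4 FPKM in WT (limma adjusted p = 0.0199). That count is near the 8.54% of all genes tested that were called in either direction. Of 13 clock genes 2 fell and none rose (2 at an unadjusted limma p under 0.05): Arntl averaged 8.54 ± 0.8996 FPKM in KO and 12.1 ± 1.62 FPKM in WT. Nfil3 averaged 18.4 ± 5.21 FPKM in KO and 28.9 ± 2.97 FPKM in WT and lost its call without KO 3, KO 4, KO 5, WT 1, WT 3 or WT 5 (limma adjusted p up to 0.065). Their part in the sterol results was not tested.

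Of 12 Kupffer cell markers 5 fell (Clec4f, Vsig4, C1qa, Csf1r and Folr2), none rose (1 at an unadjusted limma p under 0.05) and none was at 0 in all libraries. Their median log2 difference was -0.29, and their summed level was 207 to 299 FPKM in KO and 298 to 340.1 FPKM in WT. Csf1r lost its call without KO 1, KO 2, KO 5, WT 1, WT 2 or WT 3 (limma adjusted p up to 0.0688), and Folr2 without KO 2, KO 4, KO 5, WT 1, WT 2, WT 3 or WT 4 (up to 0.082). Sinusoidal endothelial markers summed to 194 to 216 FPKM in KO and 206 to 213 FPKM in WT, and limma called 0 of 10 (3 had an unadjusted p under 0.05). Stellate cell markers summed to 244 to 280.4 FPKM in KO and 248 to 345 FPKM in WT, with Reln lower of 9. Cholangiocyte markers summed to 13.6 to 18.9 FPKM in KO and 14.9 to 20.6 FPKM in WT, with Sox9 lower of 5 tested. Lymphocyte markers summed to 4.99 to 8.32 FPKM in KO and 6.97 to 8.57 FPKM in WT, and limma called 0 of 6 tested (2 had an unadjusted p under 0.05). Reln lost its call without 9 of the 10 libraries, all but WT 3, and Sox9 without 8, all but KO 1 and WT 5 (limma adjusted p up to 0.105 and 0.0777). Among 10 hepatocyte markers Cps1 and Ahsg rose and Trf fell. Ahsg lost its call without KO 3, KO 4, KO 5, WT 1, WT 2, WT 3 or WT 5 (limma adjusted p up to 0.0985), and Trf without KO 2, KO 3, KO 5, WT 1, WT 4 or WT 5 (up to 0.0585). The part of other cell types in the sterol results was not tested.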

How the data were processed

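Livers of 5 Etnppl knockout (KO) and 5 wild-type (WT) samples were measured by poly-A RNA sequencing. The authors deposited FPKM per gene and library, which scales fragments to transcript length and to the library. STAR, RSEM, R 4.0.2, DESeq, DESeq2 and the mm10 build are named, per the submitters' processing notes, with no role for each. The sources used here give neither annotation release nor the strand setting of the counting, so overlapping genes may share reads. A directional second-strand step is named, per the labels' protocols. FPKM values are shares of a library, so abundant transcripts that rise lower the others. Total reads are unknown, so no counting interval is given.

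The values entered the fit as log2(FPKM + 0.5), which understates changes of low genes. A gene was tested where its mean over the 10 libraries reached 0.5 FPKM. The two-sided limma test (version 3.58.1, R 4.3.3) had genotype as its single term, with trended and robust eBayes. Calls needed an adjusted p (Benjamini-Hochberg, over all 12247 genes) under 0.05. The fit was tested on simulated data. Ratios of 5 gene pairs were compared with exact two-sided permutation tests over all arrangements of 5 and 5 libraries. A pair among these is not reported here, and it stays in the adjustment over the 5. The 29 genes and all lists and markers were chosen with earlier results of these data known, and no list was tested as a set.

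Of the 29 genes, the called ones and Insig2, Srebf2, Scap, Mylip, Hmgcs1, Sqle and Stard4 are given in every library, and the others as means. Of each other list, called genes are named, at most 4 by smallest p, with 1 more for Kupffer cell markers. Srebf1 and Scd1, not called, were added. Sequences were to be promoters of called genes with a sterol response element core, and those of Insig1 and Insig2 were added. Under the filter were Idi2, Pnpla3, Per3, Krt7, Cftr, Ms4a1, Gzma, Cd8a and Cd4, so these were not tested. Gene positions are those of GENCODE for GRCm38, which mm10 is built on, and promoters are from RefSeq (GRCm38.p6). Alternatives were pseudocounts of 0.1 and 1, no filter or a minimum of 5 FPKM, 3 scalings, eBayes without the robust option, library quality weights, the replicate number as a block, and each library left out in turn. Matplotlib 3.10.9 (Python 3.11.15) drew the figures.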

Additional observations from a re-analysis of the deposited data

Results flagged for a closer look

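In groups of 5 libraries, 4 of the 68 groups searched held 1 library far from the other 4, and chance alone gives about 1 in 20, or 3.4. Mvk, mevalonate kinase, was at 4.84 FPKM in WT 2 against 3.56 to 3.93 FPKM in the other WT libraries. Ggps1, of the branch to protein prenylation, was at 3.11 FPKM in WT 3 against 2.25 to 2.42 FPKM. Lss, lanosterol synthase, was at 3.87 FPKM in WT 5 against 2.56 to 2.77 FPKM. Msmo1, the methylsterol oxidase, was at 11.7 FPKM in WT 5 against 8.72 to 9.10 FPKM. All 4 are WT libraries above the rest of their genotype. Msmo1 was called lower in KO whichever library was left out, and the other 3 genes were not called.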

How the results depend on the processing

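The main limits are the size of the groups, 5 libraries each, the unknown total depth, and FPKM, which shows shares of a library rather than amounts. Across other pseudocounts, filters, scalings, a non-robust fit, weights and the block, the number of the 29 genes called lower was 8 to 13, lowest at a mean of at least 5 FPKM, where 20 of the genes were tested and their median was -0.21. Scaling moved the median of all genes by at most 0.0231.

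Dropping the filter on low values raised the genes tested to 21111, of which 370 genes were lower and 294 higher. Of the 29 genes, Hmgcs1, Cyp51, Nsdhl and Insig2 lost their calls (limma adjusted p of 0.0521, 0.0509, 0.0671 and 0.054). That left 9 lower and 0 higher. In the other lists SREBP processing, paralogs, stellate and cholangiocyte markers then had 0 lower, clock genes 1 lower, Kupffer markers 3 lower, and SREBP1 lipogenesis and hepatocyte markers 1 higher each. The genes of these other lists that lost their calls had limma adjusted p of 0.052 to 0.0804. At 5 FPKM, SREBP processing had 2 lower and cholangiocyte markers 0. Median-of-ratios scaling left 0 lower in SREBP processing and stellate markers, and quantile normalization left 0 stellate markers lower and 1 hepatocyte marker higher. Library weights gave 2 hepatocyte markers lower and 1 clock gene higher.

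Samples with the same replicate number did not deviate together in every pair (correlations 0.0908, 0.158, -0.207, 0.00821 and 0.208). These correlations were not tested, and what the number stands for is not known here. With the replicate block 321 genes were lower, 230 higher, and of the 29 genes 11 were lower and 0 higher. The block ended the calls of Hmgcs1 (limma adjusted p = 0.0645), Nsdhl (0.0909) and Insig2 (0.0968), and Stard4 passed (0.0361). SREBP processing, paralogs, clock, hepatocyte, stellate and cholangiocyte lists then had 0 lower, SREBP1 lipogenesis 0 higher and hepatocyte markers 1 higher. Elovl6 had 0.0516 and Arntl 0.0644. Under the block the ratio difference stayed at -1.75 for Insig1 to Insig2 with an adjusted exact p of 0.156. Sign flips of 5 pairs cannot give a p below 0.0625.

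Leaving out 1 library gave 8 to 13 of the 29 genes lower and 0 to 1 higher, with a median of -0.34 to -0.25. Over all genes it gave 316 to 541 lower and 258 to 454 higher. Lower genes were 0 to 1 in SREBP processing, paralogs, stellate, cholangiocyte and lymphocyte lists, 1 to 2 in cholesterol transport and clock, 0 to 2 in hepatocyte and 3 to 6 in Kupffer lists. Higher genes were 0 to 1 in the isoprenoid branch and clock, 1 to 3 in SREBP1 lipogenesis and 1 to 2 in hepatocyte lists. The ratio difference of Lbr to Tm7sf2 ranged from -0.23 to 0.018. No called gene changed direction in any setting. Uncalled genes near 0 did. Tmem97 was at 0.0038 after median-of-ratios scaling, 0.011 after quantile normalization and 0.0029 with weights. Without 1 library the ranges that crossed 0 were -0.049 to 0.028 for Tmem97, -0.12 to 0.016 for Hsd17b7, -0.061 to 0.023 for Dhdds, -0.16 to 0.0041 for Pmvk and -0.13 to 0.037 for Lss.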
